A study of Mus musculus with 10 samples.

Results

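Glycolysis is carried out by enzymes most of which exist as several forms, or isozymes, each from its own gene. The signals of 10 isozyme genes of 4 glycolytic enzymes were examined in cochleae of mitochondrial DNA mutator mice: the enolases Eno1, Eno2 and Eno3, the phosphoglycerate mutases Pgam1 and Pgam2, the phosphofructokinases Pfkm, Pfkl and Pfkp, and the lactate dehydrogenases Ldha and Ldhb. Members were all probe sets (groups of short oligonucleotides read as 1 signal) carrying one of these gene names and no other. This gave 16 of 45037 probe sets, for 9 of the 10 genes, out of 18193 genes named by single-gene probe sets. The 932 probe sets that name several genes were left out. Eno1 was not analysed here, because no probe set carried its name as the only gene name in the annotation used. Of the 16 probe sets, 14 were among the 22518 brightest ones that were tested, and all 9 genes had at least 1 tested probe set. Where a gene had several probe sets, the one with the highest mean log2 signal stands for it, and the others are given beside it.

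The mutant mice carried the D257A change in both copies of Polg (PolgD257A/D257A), the gene of the mitochondrial DNA polymerase, whose proofreading activity the change removes, and their controls were Polg+/+ (WT). All were males aged 9 months, and total RNA of the cochlea was hybridised to 1 Affymetrix array per sample, 5 D257A samples and 5 WT samples. The study set each D257A sample against each WT sample, 25 pairs in all, to look for genes that respond to accumulated mitochondrial DNA mutations. The D257A allele is present in every tissue from conception, so the arrays cannot separate the cochlea's own response from that of the whole animal. The labels do not say whether samples came from single animals, and the submitters state that replicates were not made, so p-values measure only the spread between these samples.

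The deposited linear intensity values had been brought to 1 common scale by the authors, with trimmed means of 1494.4 to 1496.2 and median signals of 551.7 to 649.3. Of 15 cochlear marker genes 12 were tested, and Coch, a secreted protein of the spiral ligament, had 57562.8 to 80129.6 in D257A arrays and 65510.6 to 83744.1 in WT arrays. The hair cell genes Slc26a5 and Pou4f3 and the tectorial membrane gene Tecta lay below the tested range (a mean signal of about 577). D257A array 2 and WT array 3 stood apart: their mean correlations with their own groups were 0.839 and 0.876, the lowest of their groups, against 0.878 to 0.939 for the other 8 arrays. For several genes, results are given with and without them. The 2 arrays were picked out from these same values. Leaving them out can narrow the spread within groups and so favour a call, which is then not independent support.

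Enolase turns 2-phosphoglycerate into phosphoenolpyruvate, and phosphoglycerate mutase makes the substrate of that step from 3-phosphoglycerate. Eno3 and Pgam2 are the forms that adult skeletal muscle uses in place of Eno1 and Pgam1, which most tissues use, while Eno2 is the neuronal enolase. Phosphofructokinase commits glucose to the pathway, with subunits named for muscle (Pfkm), liver (Pfkl) and platelets (Pfkp), and lactate dehydrogenase closes it, with the muscle-type subunit Ldha and the heart-type subunit Ldhb. A cochlea dissected from the skull can carry strands of nearby muscle, bone, marrow and nerve as well as the sensory epithelium.

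Promoter windows are shown for Eno3 and Pgam2, whose signals moved together, and for Pgam1, the general form of the same mutase, whose signal did not pass the test. Each runs from 250 bases before the transcription start to 50 bases after it, in the RefSeq table for GRCm38.p6, and all 10 genes matched an entry. They lie at chr11:70656926-70657225 on the plus strand (Eno3), chr11:5803747-5804046 on the minus strand (Pgam2) and chr19:41911621-41911920 on the plus strand (Pgam1). Capitals mark the letters CANNTG, the E-box to which muscle regulatory factors of the MyoD family, among many others, can bind.
Eno3: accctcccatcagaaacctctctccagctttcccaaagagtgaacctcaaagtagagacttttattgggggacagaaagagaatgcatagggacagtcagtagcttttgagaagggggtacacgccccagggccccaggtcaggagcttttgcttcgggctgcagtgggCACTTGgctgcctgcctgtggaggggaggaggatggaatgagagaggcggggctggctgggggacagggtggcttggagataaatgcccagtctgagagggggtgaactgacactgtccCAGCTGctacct
Pgam2: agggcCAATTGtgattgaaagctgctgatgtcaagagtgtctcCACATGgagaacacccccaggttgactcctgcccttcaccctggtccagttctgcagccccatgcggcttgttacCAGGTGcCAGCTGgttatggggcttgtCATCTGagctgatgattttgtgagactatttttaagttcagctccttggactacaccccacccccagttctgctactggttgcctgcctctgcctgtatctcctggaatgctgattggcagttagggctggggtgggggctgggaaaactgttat
Pgam1: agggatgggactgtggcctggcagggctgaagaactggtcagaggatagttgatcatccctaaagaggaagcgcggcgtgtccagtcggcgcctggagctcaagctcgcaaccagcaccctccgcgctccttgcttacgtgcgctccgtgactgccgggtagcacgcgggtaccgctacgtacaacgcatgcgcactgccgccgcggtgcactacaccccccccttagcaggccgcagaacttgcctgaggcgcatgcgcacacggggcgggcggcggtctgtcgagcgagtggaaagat

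The Eno3 window held 2 E-box matches, the Pgam2 window 5 and the Pgam1 window 0, and 72.3% of all 32851 windows of the table held at least 1. The windows of Eno3, Pgam2 and Pgam1 had a GC content of 57.0%, 53.3% and 65.0%. The core letters of the hypoxia response element, ACGTG or GCGTG on either strand, stood 0 and 1 times in the Eno3 window, 0 and 0 times in the Pgam2 window, and 1 and 2 times in the Pgam1 window. Of all windows 19.6% held ACGTG and 32.4% held GCGTG. The first Ldha window held ACGTG 5 times on both strands together, and 4 of these counts come from 2 copies of CACGTG, which reads alike on both strands and is itself an E-box. These matches are letters in a window and show no binding.

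The muscle enolase Eno3 and the muscle mutase Pgam2 were lower in D257A cochleae, and no other isozyme passed the test. The members called lower were thus 2 of 9 genes, with none called higher, and Pgam2 entered the test only through its WT signal. Over all 22518 tested probe sets, 2.28% were called by limma at an adjusted p of 0.05, 1.24% lower and 1.03% higher. These were 233 higher and 280 lower probe sets, and 174 higher and 479 lower after median centring of the arrays. The median log2 fold change was -0.13 over the 9 genes and -0.000544 over all tested probe sets, with 6 of the 9 below 0. At an unadjusted p of 0.05, 4 of the 9 were lower and 0 higher, beside 8.64% of all tested probe sets lower.

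**Figure D1:**
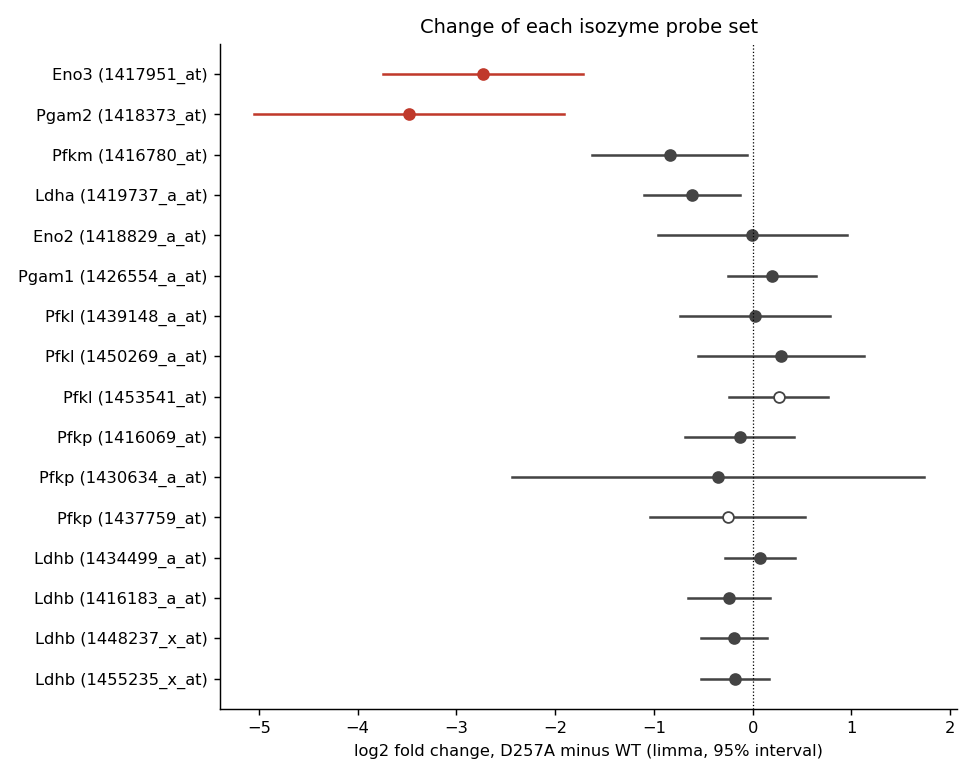
Log2 fold change, D257A minus WT, of each of the 16 isozyme probe sets (points) with its 95% interval from limma (lines). Red marks an adjusted p under 0.05, and open points are probe sets below the tested range, from the fit without that filter. Only Eno3 and Pgam2 are red, at -2.73 and -3.48.

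Eno3 had signals of 1832.4, 3342.7, 1983.8, 981.2 and 5667.0 in D257A arrays 1 to 5, and of 26210.3, 18152.2, 5713.8, 15276.3 and 21847.4 in WT arrays 1 to 5. Every D257A array lay below every WT array, although D257A array 5 and WT array 3 nearly met. Such separation was seen in 2.69% of all tested probe sets with D257A lower. The group means were 2761.4 ± 1831.5 in D257A and 17440.0 ± 7730.4 in WT (SD, n = 5 each). On the log2 scale Eno3 fell by 2.73 (SE 0.47), a 6.65-fold lower signal (95% interval 3.29 to 13.4; limma adjusted p = 0.0119). Leaving out each array in turn left adjusted p between 0.00319 and 0.0428. Without D257A array 2 and WT array 3 the difference was -3.22, a 9.34-fold lower signal (limma adjusted p = 0.00194).

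Pgam2 had signals of 343.6, 1002.8, 92.7, 162.9 and 1952.5 in D257A arrays 1 to 5, and of 9570.7, 5769.4, 1490.5, 4008.7 and 7236.5 in WT arrays 1 to 5. The groups overlapped in 1 of 25 pairs, in which D257A array 5 lay above WT array 3. The means were 710.9 ± 781.7 in D257A and 5615.2 ± 3077.8 in WT (SD, n = 5 each), and 3 D257A arrays were dimmer than the edge of the tested range. The D257A mean of Pgam2 on the log2 scale also lay below that edge, so it was tested only through its WT signal. Pgam2 fell by 3.48 on the log2 scale (SE 0.73), an 11.2-fold lower signal with a 95% interval of 3.76 to 33.2 (limma adjusted p = 0.0282). The size of this fold rests on dim signals: it was 11.8 with 1 added before the log and 9.64 with 64 added. Of 10 fits on 9 arrays each, 7 lost the call (those lacking D257A array 1, 3 or 4, or WT array 1, 2, 4 or 5), and the adjusted p reached 0.0864 without WT array 5, with differences of -4.03 to -2.99 over all 10. Without D257A array 2 and WT array 3 the difference was -4.21 (limma adjusted p = 0.00754).

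**Figure D2:**
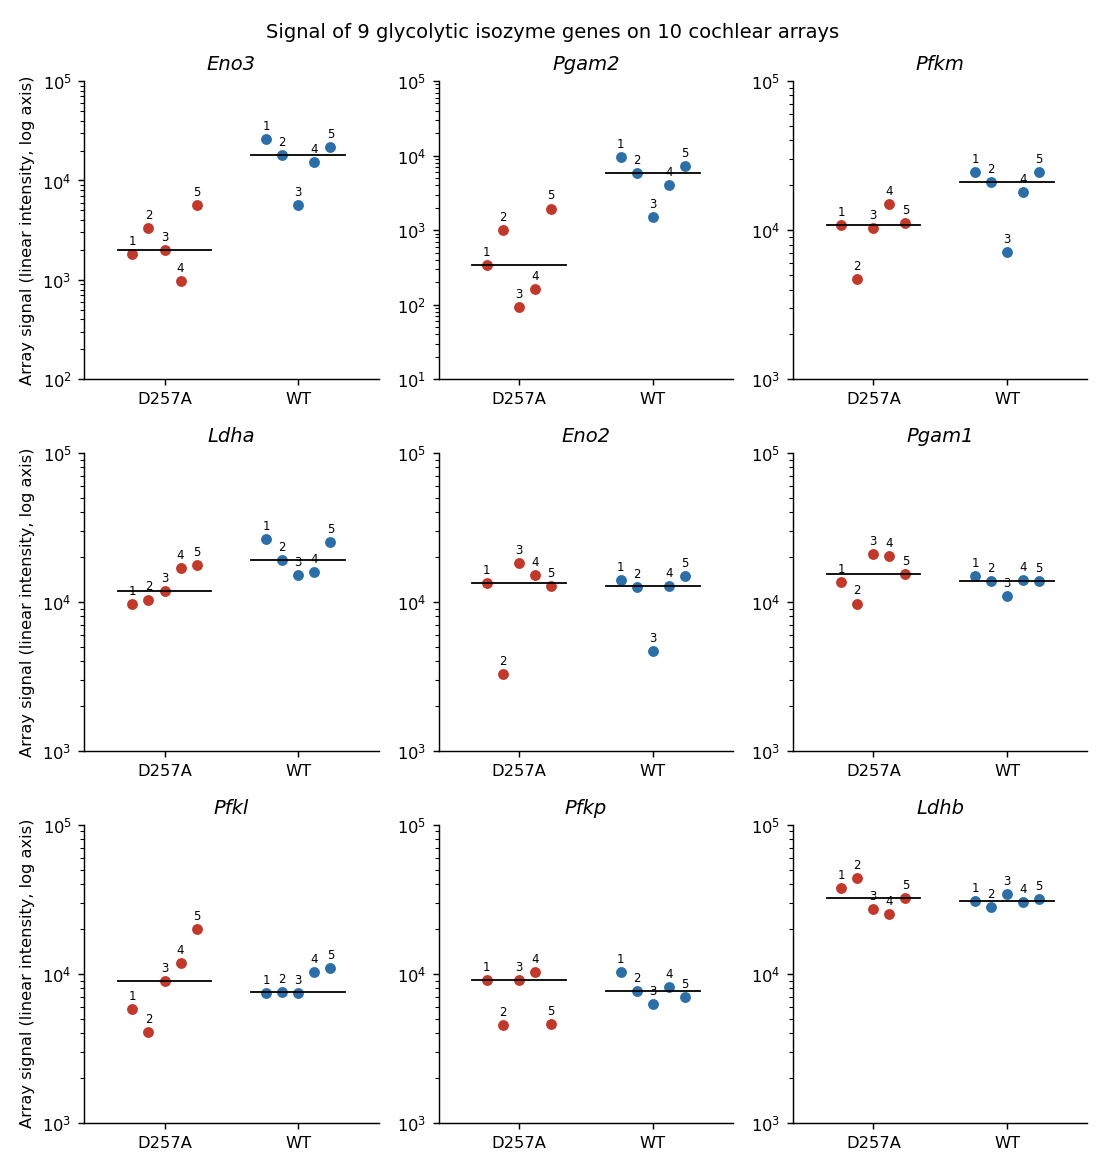
Signal of the brightest probe set of each gene on every array (log axis), D257A in red on the left and WT in blue on the right; numbers are array numbers and lines are group medians. Eno3 separates the groups, Pgam2 does so but for D257A 5 and WT 3, and Eno2 is low on D257A 2 and WT 3, at 3292.5 and 4698.0.

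The neuronal enolase Eno2 and the general mutase Pgam1 did not pass the test, and the general enolase Eno1 was not analysed. Eno2, the neuronal enolase, had 13306.0, 3292.5, 18384.6, 15170.6 and 12836.3 in D257A arrays 1 to 5, and 14014.7, 12523.2, 4698.0, 12871.6 and 15021.4 in WT arrays 1 to 5. The array that was low in each group was the one that stood apart from its group over all genes. The log2 difference was -0.0044 (95% interval -0.96 to 0.95; limma adjusted p = 0.999), and 0.12 without those 2 arrays (limma adjusted p = 0.712). The 14 neuronal marker genes summed to 203135 to 295414 in D257A arrays and 223693 to 307995 in WT arrays, with 0 of 14 called and 1 lower at an unadjusted p of 0.05.

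Pgam1 had 13575.1, 9765.9, 20846.4, 20258.1 and 15472.8 in D257A arrays 1 to 5, and 14958.8, 13889.3, 10886.0, 14084.6 and 13893.6 in WT arrays 1 to 5. D257A arrays spanned a wider range on both sides of the WT arrays. Its log2 difference was 0.19 (95% interval -0.25 to 0.64, limma adjusted p = 0.685). A rise of up to 0.64 or a decrease of 0.25 thus remained possible at this number of arrays. Without D257A array 2 and WT array 3 the Pgam1 difference was 0.28 (limma adjusted p = 0.380).

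Pfkm, the muscle subunit of phosphofructokinase, had 10756.3, 4709.2, 10371.8, 15028.5 and 11109.3 in D257A arrays 1 to 5, and 24390.9, 20932.5, 7102.9, 18143.6 and 24599.2 in WT arrays 1 to 5. Every D257A array lay below the 4 brighter WT arrays, and WT array 3 lay among the D257A arrays. The log2 difference was -0.84 (SE 0.36, 95% interval -1.63 to -0.06), which did not pass adjustment (limma adjusted p = 0.262; lower in 21 of 25 pairs). Without D257A array 2 and WT array 3 it was -0.90 and passed (limma adjusted p = 0.0152), and limma's array weights gave -0.93 (adjusted p = 0.0458). Both the arrays left out and the weights were set from these same values, so these calls are not independent support.

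Pfkl, the liver subunit, had 5808.0, 4056.9, 8903.8, 11867.2 and 19937.3 in D257A arrays 1 to 5, and 7377.4, 7512.2, 7405.4, 10314.2 and 10894.6 in WT arrays 1 to 5. D257A array 5 was the brightest and D257A array 2 the dimmest of all 10. The log2 difference was 0.02 (95% interval -0.74 to 0.78; limma adjusted p = 0.986), and another tested Pfkl probe set gave 0.29 (limma adjusted p = 0.760). Pfkp, the platelet subunit, had 9060.4, 4560.0, 9044.4, 10230.6 and 4575.2 in D257A arrays 1 to 5, and 10284.4, 7613.2, 6258.6, 8149.6 and 6944.7 in WT arrays 1 to 5. Its log2 difference was -0.13 (95% interval -0.68 to 0.42; limma adjusted p = 0.842). A second Pfkp probe set gave -0.35 with a wide interval (-2.44 to 1.73), its signal being 54.0 on D257A array 2 and 298.4 on WT array 3. The third probe sets of Pfkl and Pfkp, below the tested range, gave 0.26 and -0.25 in the fit without the filter.

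Ldha had 9675.6, 10384.7, 11909.4, 16826.6 and 17771.5 in D257A arrays 1 to 5, and 26433.6, 19058.3, 15199.7, 15800.4 and 25173.6 in WT arrays 1 to 5. The 3 dimmest arrays were D257A and the 3 brightest WT, with D257A arrays 4 and 5 above WT arrays 3 and 4 in between. The log2 difference was -0.62 (SE 0.22, 95% interval -1.10 to -0.13), which did not pass adjustment (limma adjusted p = 0.179; lower in 21 of 25 pairs). Ldhb, the heart-type subunit, had 37638.7, 43839.7, 27026.0, 25254.8 and 32322.8 in D257A arrays 1 to 5, and 30669.7, 28090.9, 34006.9, 30155.9 and 31901.1 in WT arrays 1 to 5. Its brightest probe set gave a log2 difference of 0.07 (95% interval -0.28 to 0.43; limma adjusted p = 0.865). The other 3 Ldhb probe sets had the opposite sign, at -0.24, -0.19 and -0.18, and none passed the test. D257A array 2, the brightest array on 1 Ldhb probe set, had 22885.0 on another, among the lowest signals of that probe set.

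Whether 2 forms of an enzyme changed unequally was asked on each array, as the log2 signal of the muscle form minus that of its partner. This quantity compares arrays and says nothing about which form is more abundant, since the probe sets differ. Of 6 pairs planned, 5 could be computed. The pair with Eno1 could not, so muscle and general enolase were not compared. The p-values come from a two-sided exact permutation test of 5 D257A against 5 WT arrays with Benjamini-Hochberg adjustment over the 5 pairs. Its smallest possible p is 0.00794.

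Eno3 minus Eno2 was -2.85, 0.02, -3.20, -3.93 and -1.18 in D257A arrays 1 to 5, and 0.90, 0.54, 0.28, 0.25 and 0.54 in WT arrays 1 to 5. All WT arrays lay within a narrow range, and D257A array 2, where Eno2 itself was low, came closest to it. The means were -2.23 ± 1.61 in D257A and 0.50 ± 0.26 in WT (SD, n = 5 each), a difference of -2.73 (exact 95% interval -4.21 to -0.88; exact p = 0.00794, the smallest possible, adjusted 0.0198). Pgam2 minus Pgam1 was -5.24, -3.26, -7.58, -6.82 and -2.98 in D257A arrays 1 to 5, and -0.64, -1.26, -2.86, -1.81 and -0.94 in WT arrays 1 to 5. The highest D257A array and the lowest WT array, array 5 and array 3, were close but did not overlap. The means were -5.18 ± 2.06 in D257A and -1.50 ± 0.87 in WT (SD, n = 5 each), a difference of -3.68 (exact 95% interval -6.18 to -1.22; exact p = 0.00794, the smallest possible, adjusted 0.0198). The partners Eno2 and Pgam1 themselves differed by -0.0044 and 0.19, so these 2 pairs mostly repeat the Eno3 and Pgam2 differences and add no separate result. Pgam2 was dimmer than the edge of the tested range on 3 D257A arrays, so the size of its pair difference rests on dim signals. Leaving out WT array 1, 2, 4 or 5 ended both calls (adjusted exact p = 0.0794), with differences of -3.29 to -2.30 for the enolases and -4.23 to -3.07 for the mutases over all 10 such tests.

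The other 3 pairs also had negative differences, which did not pass. Pfkm minus Pfkl differed by -0.86 (exact 95% interval -1.85 to 0.18; exact p = 0.0794, adjusted 0.111). Pfkm minus Pfkp differed by -0.71 (exact 95% interval -1.42 to 0.10; exact p = 0.111, adjusted 0.111). Ldha minus Ldhb differed by -0.69 (exact 95% interval -1.62 to 0.14; exact p = 0.0952, adjusted 0.111). Without WT array 3 both Pfkm differences passed, at -1.13 and -0.96 (exact permutation test, adjusted p = 0.0397 for each). The groups overlapped in all 3 pairs.

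**Figure D3:**
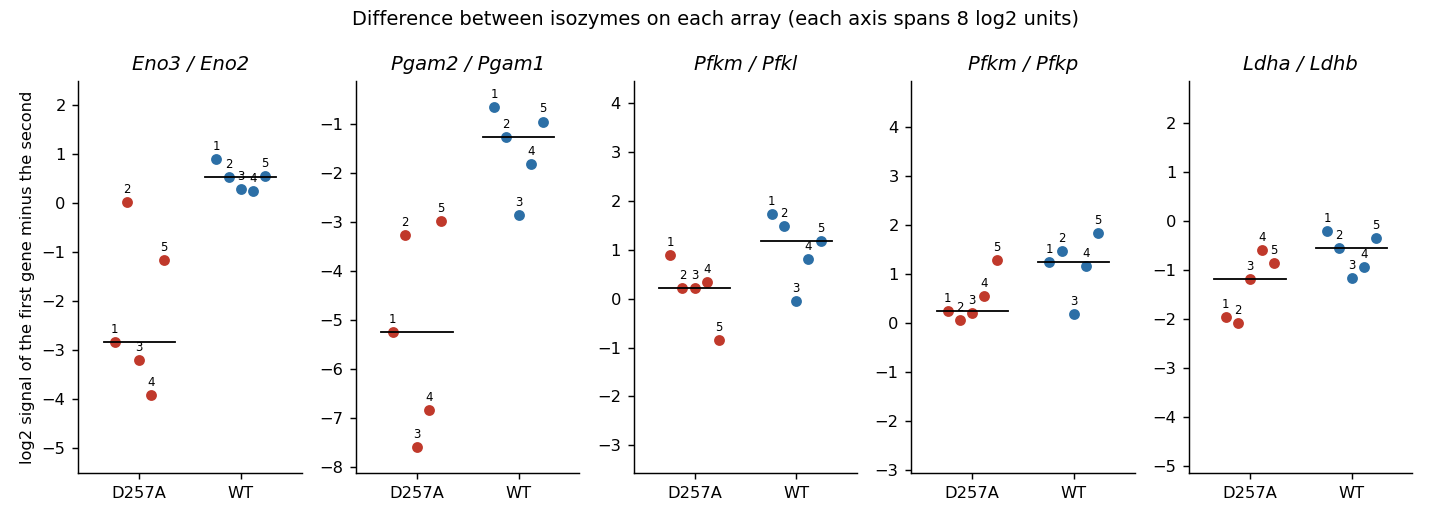
Log2 signal of the muscle-type form minus that of its partner on each array, for 5 isozyme pairs, D257A in red on the left and WT in blue on the right (numbers are array numbers, lines are medians, and every vertical axis spans 8 log2 units). All D257A arrays lie below all WT arrays for Eno3 over Eno2 and for Pgam2 over Pgam1. Pgam2 was dimmer than the edge of the tested range on 3 D257A arrays.

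Markers of skeletal muscle moved with Eno3 and Pgam2. Of 17 fast muscle genes, all tested, 6 were called lower and 0 higher, all 17 log2 fold changes were negative, and their median was -2.68. They included the calcium-binding protein of muscle stores Casq1 (-2.28, limma adjusted p = 0.00648), the fast troponin I Tnni2 (-3.71, limma adjusted p = 0.0103) and the myosin light chain Myl1 (-3.47, limma adjusted p = 0.0148). The myosin heavy chain Myh2, also called, had 18.0 to 486.4 in D257A arrays and 6820.2 to 31142.9 in WT arrays. All its D257A arrays lay below the edge of the tested range, so it was tested only through its WT signal and the size of its fold is not given. Without D257A array 5 the fast muscle genes called lower were 14, without WT array 3 they were 11, and without D257A array 1 or 3 or WT array 1, 2, 4 or 5 they were 4.

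The slow muscle and cardiac list gave a mixed picture. Of its 13 genes 6 were tested and 5 called lower, but the cardiac actin Actc1, Myoz2 and Myl2 were below the edge of the tested range on all D257A arrays and entered only through WT. Actc1 had 333.3 to 523.6 in D257A arrays and 2682.5 to 6350.6 in WT arrays, Myoz2 268.7 to 339.4 in D257A and 1156.4 to 3514.3 in WT, and Myl2 157.0 to 468.5 in D257A and 907.8 to 2306.9 in WT. Myoglobin Mb (-2.95, limma adjusted p = 0.0419) and the calcium-binding protein Casq2 (-1.25, limma adjusted p = 0.0334) each lost the call in 7 of 10 fits on 9 arrays each. Casq2 was below the edge on 3 D257A arrays and in its D257A mean log2 signal, so it too entered through WT. The count of 5 fell to 3 without D257A array 1 or 3 or WT array 1, 2, 4 or 5. The 7 dimmer genes had differences of both signs, from -0.83 for Myh7 to 0.50 for Tnnt2, and none was called when dim probe sets were tested too. The median over all 13 was then -0.60, against -2.46 over the 6. No marker of either list was at 0. In these bulk samples, less muscle carried along at dissection, fewer muscle fibres and less RNA per fibre cannot be told apart.

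The summed signal of the 17 fast muscle genes was 58432, 147877, 61719, 26703 and 274931 in D257A arrays 1 to 5, and 577968, 443115, 216299, 397121 and 525437 in WT arrays 1 to 5. D257A array 5 was above WT array 3 in this sum, the same pair of arrays that met in Eno3 and crossed in Pgam2. From the lowest to the highest array, Eno3 had the order of the fast muscle sum but for the exchange of D257A 5 and WT 3, and Pgam2 had it but for the place of D257A 3, its dimmest array. Eno3 was 3.14%, 2.26%, 3.21%, 3.68% and 2.06% of this sum in D257A arrays 1 to 5, and 4.54%, 4.10%, 2.64%, 3.85% and 4.16% in WT arrays 1 to 5. The groups overlapped, with means of 2.87% ± 0.68 in D257A and 3.86% ± 0.72 in WT (SD, n = 5 each) and a log2 difference of -0.43, beside -2.73 for the signal itself. Pgam2 was 0.588%, 0.678%, 0.15%, 0.61% and 0.71% of the sum in D257A arrays 1 to 5, and 1.656%, 1.302%, 0.689%, 1.009% and 1.377% in WT arrays 1 to 5. Its shares overlapped in 1 of 25 pairs and differed by -1.18 on the log2 scale, beside -3.48 for the signal. Pvalb, the gene of the 17 with the smallest fall (-0.90), weighed unequally in the sum. It gave 30026.3 of 58432, 26413.7 of 61719 and 14972.3 of 26703 on D257A arrays 1, 3 and 4. On D257A arrays 2 and 5 it gave 19514.0 of 147877 and 17508.9 of 274931. On WT arrays it ranged from 25897.0 to 51802.6, beside sums of 216299 to 577968. The shares therefore depend on Pvalb, and shares without it were not computed. All shares were computed after the signals had been seen and were given no test. The part of muscle content in the 2 isozymes' difference was not tested.

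**Figure D4:**
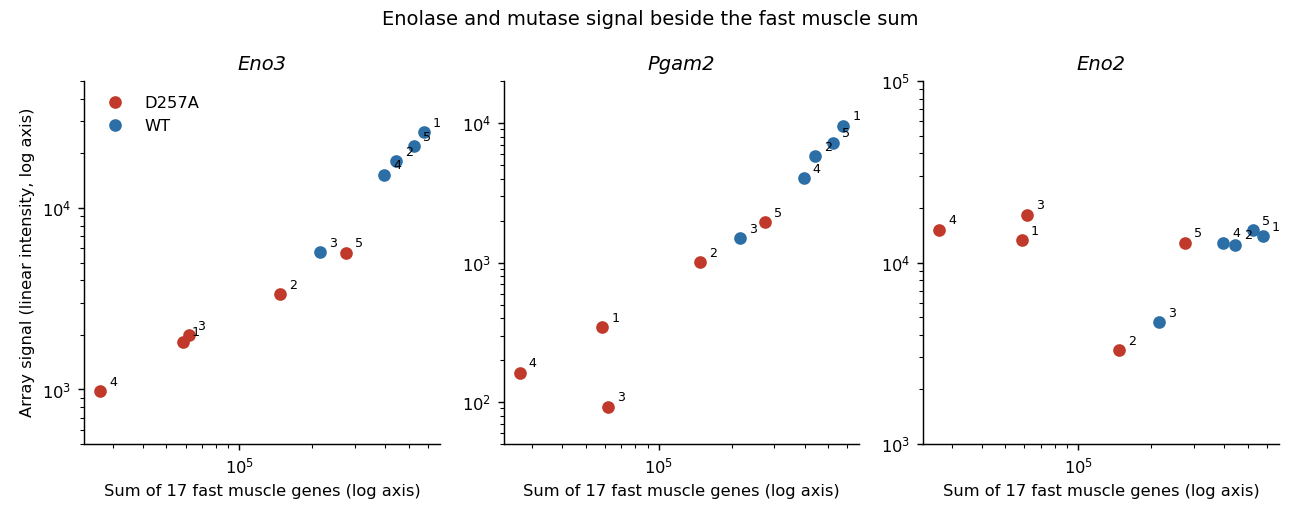
Signal of Eno3, Pgam2 and Eno2 against the summed signal of 17 fast muscle genes on the same array (both axes log), with array numbers, D257A in red and WT in blue. Eno3 and Pgam2 climb with the sum across both groups, while Eno2 shows no such climb and is lowest on D257A 2 and WT 3.

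Among 11870 genes, those whose log2 signals most resembled Eno3 over the 10 arrays were Tnnt3 (Pearson r = 0.987), Casq1 (0.986), Tnni2 (0.984), Apobec2 (0.979) and Myom1 (0.979). Within groups, after each group mean was removed, the same 5 genes had r of 0.981, 0.947, 0.939, 0.937 and 0.929. Tnnt3 and Tnni2 are fast troponins and Myom1 a protein of the sarcomere's M-band. Pgam2 was most like Cmya5 (0.974), Apobec2 (0.970), the mitochondrial creatine kinase of muscle Ckmt2 (0.967), myoglobin Mb (0.967) and the muscle calcium release channel Ryr1 (0.963). Eno2 was most like Cops6 (0.979), Psmd7 (0.979), Rnf167 (0.976), Kat5 (0.976) and Kif1a (0.968), all of them lowest on D257A array 2 and WT array 3. Eno3 and Pgam2 correlated at 0.959 with each other (0.881 within groups), Eno2 and Pfkm at 0.758 (0.916 within groups), and Eno3 and Eno2 at 0.0714. All these coefficients rest on 10 arrays that differ in muscle signal and in likeness to their own group, and they are given as a description.

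Of the other glycolysis genes, 23 were listed and 17 tested, and 0 were called by limma in either direction. At an unadjusted p of 0.05, 3 were lower and 2 higher, and the median log2 fold change was -0.10. Slc2a1, the glucose transporter of many barrier and blood cells, had 13908.3, 14723.8, 11498.7, 15364.9 and 15179.1 in D257A arrays 1 to 5, and 9061.7, 8292.1, 10793.8, 8918.7 and 10811.0 in WT arrays 1 to 5. Every D257A array was above every WT array, which held for 2.47% of all tested probe sets, but the log2 difference of 0.56 (SE 0.14) did not pass adjustment (limma adjusted p = 0.0634). Bpgm, which makes 2,3-bisphosphoglycerate in red cells, differed by -0.82 (limma adjusted p = 0.0833; lower in 24 of 25 pairs), and 0 of 7 tested red cell genes were called, with 1 lower at an unadjusted p of 0.05. The hexokinase Hk3, found mainly in myeloid cells, differed by 1.06 (limma adjusted p = 0.112). Of 11 neutrophil lineage genes Mpo and Ctsg were called higher (1.12 and 1.31, limma adjusted p = 0.0309 and 0.0337) and Ltf lower (-2.11, limma adjusted p = 0.0306), calls that were lost in 6 or 7 of 10 fits on 9 arrays each. The median over the 11 was 0.945, and they summed to 110661 to 320889 in D257A arrays and 109984 to 185006 in WT arrays. The part of blood cell content in the Bpgm and Hk3 values was not tested.

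The insulin-responsive glucose transporter Slc2a4 averaged 1463.8 ± 561.9 in D257A and 2247.3 ± 661.9 in WT (SD, n = 5 each), a log2 difference of -0.65 (limma adjusted p = 0.240). Aldoa, the aldolase of muscle and most other tissues, averaged 46509.5 ± 12229.5 in D257A and 72854.2 ± 22339.4 in WT (SD, n = 5 each). Its log2 difference of -0.61 (limma adjusted p = 0.240) passed the test without D257A array 2 and WT array 3, at -0.74 (limma adjusted p = 0.0389). Pkm, the pyruvate kinase of muscle and most other tissues, was low on the same 2 arrays as Eno2, at 7502.2 on D257A array 2 and 11648.5 on WT array 3, and its log2 difference was -0.16 (limma adjusted p = 0.891). Aldoa and Pkm were picked out after their values had been seen, and the 2 arrays left out were picked from these same data.

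**Figure D5:**
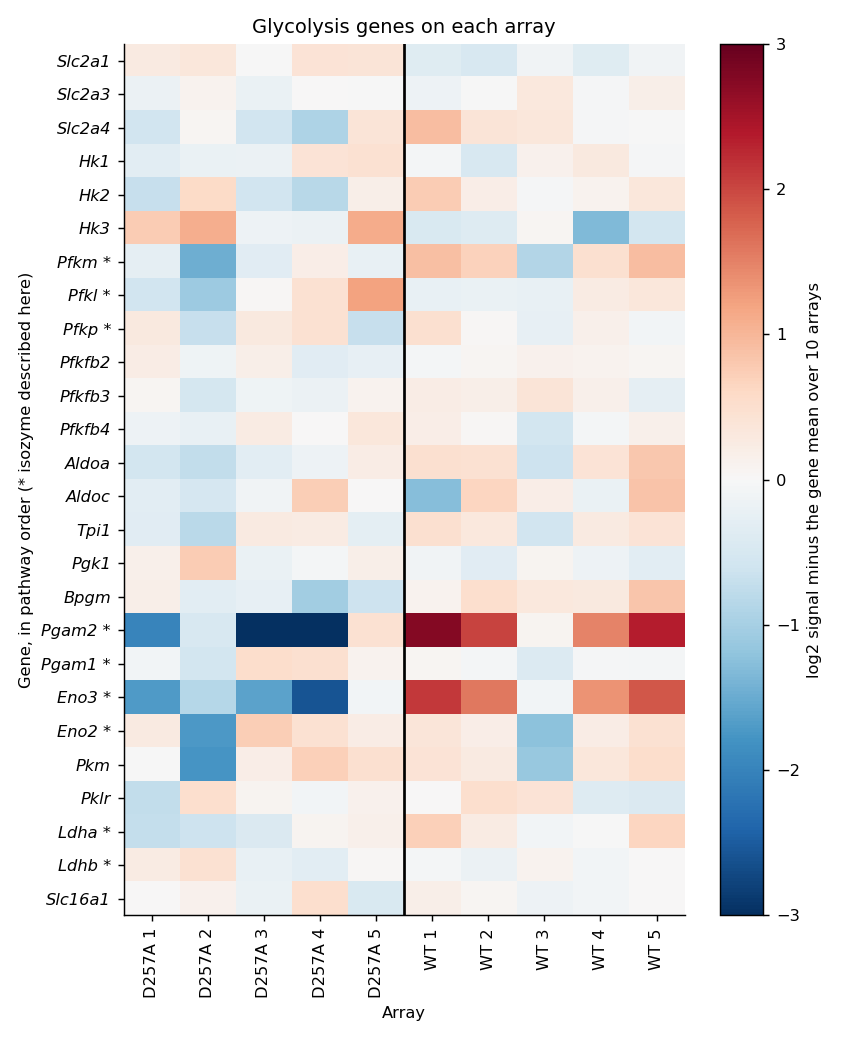
Log2 signal minus the gene's mean over the 10 arrays for 26 glycolysis genes in pathway order (stars mark the 9 isozymes), D257A arrays left of the line and WT arrays right of it; values beyond 3 log2 units take the end colours. Pgam2 and Eno3 are the 2 rows with the strongest contrast, and D257A 2 and WT 3 share low values of Pfkm, Eno2 and Pkm.

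Genes that supply muscle with glucose units from glycogen, or that buffer its ATP, were listed beside the isozymes. Of 16 listed genes 12 were tested, 1 was called lower and 0 higher, and the median log2 fold change was -0.40. The called gene was Ckmt2, which averaged 1480.0 ± 1347.9 in D257A and 10523.7 ± 5339.0 in WT (SD, n = 5 each) and fell by 3.20 on the log2 scale (limma adjusted p = 0.0113), with 2 D257A arrays below the edge of the tested range. Pygm, the muscle glycogen phosphorylase, had 1547.5, 942.4, 1896.1, 2855.8 and 5075.5 in D257A arrays 1 to 5, and 11090.7, 9067.1, 1741.4, 7994.7 and 10905.2 in WT arrays 1 to 5. WT array 3 again lay among the D257A arrays. Its log2 difference of -1.71 (limma adjusted p = 0.115) was -1.91 without D257A array 2 and WT array 3 (limma adjusted p = 0.00738), which were picked from these same data.

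Ckm, the cytosolic creatine kinase of muscle, differed by -2.49 (limma adjusted p = 0.174), with 58214.5 on D257A array 5 against at most 5061.2 on the other D257A arrays, and 6145.0 on WT array 3 against at least 38971.5 on the other WT arrays. Without D257A array 5 the Ckm difference was -3.35 (limma adjusted p = 0.0305). Pygl, the liver glycogen phosphorylase, differed by -0.51 (limma adjusted p = 0.198). When dim probe sets were tested too, Phkg1 and Ampd1, the muscle forms of phosphorylase kinase gamma and AMP deaminase, were also called lower, 3 of 15 genes in all. Phkg1 had 67.3 to 293.0 in D257A arrays and 341.8 to 896.7 in WT arrays, and Ampd1 30.5 to 131.7 in D257A and 162.8 to 1290.0 in WT. All D257A arrays of both genes, and 3 WT arrays of Phkg1 and 1 of Ampd1, lay below the edge of the tested range, so no fold is given.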

How the data were processed

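Cochlear RNA in 5 D257A and 5 WT samples of male mice was measured on Affymetrix arrays of 45101 probe sets. The deposited values are linear intensity, from the software GCOS 1.3, as the submitters' processing notes name it; how background was removed and probes summarised is not given in the sources used here. The number of arrays limits the precision. Leaving out 64 probe sets filled on 1 array, 45037 were used, of which 34945 had 1 gene, 932 several and 9160 none named here.

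Signals were taken as log2(signal + 16), so fold changes of dim genes are understated. The fraction 0.5 with the highest mean was tested with limma 3.58.1 in R 4.3.3 (group as the only term, intensity trend, two-sided, 8 residual degrees of freedom, Benjamini-Hochberg over 22518 probe sets at 0.05). The fit was tested on simulated data. Isozyme pairs were compared by exact permutation (scipy 1.17.1, 252 splits).

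Genes named were all members, up to 4 genes of each of 8 lists with the smallest p, and the 5 genes most like Eno3, Pgam2 and Eno2. Members, lists and tests were chosen with earlier results of these data known. Alternatives changed the pseudocount, scaling, filter, variance model, array weights, replicate block, threshold, probe set rule and arrays left out. No batch was examined, as scan dates and detection calls were not used here.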

Additional observations from a re-analysis of the deposited data

Results flagged for a closer look

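In 18 groups of 5 arrays (9 genes, D257A and WT), 4 had 1 array far from the rest. There the gap to the nearest other array exceeded 0.71 of the group's range, both taken on the log2 scale. Chance flags about 1 group in 20. Eno2 was low on D257A array 2, at 3292.5, and on WT array 3, at 4698.0. Pgam1 was low on WT array 3, at 10886.0, and Pfkm on WT array 3, at 7102.9. These 2 arrays also correlated least with their own groups over all tested probe sets. Of the 9 genes, 1 lay above its own mean on D257A array 2 and 2 on WT array 3, against 3 to 7 on the other arrays.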

How the results depend on the processing

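Of 22 alternatives, Eno3 was lower and called in all 21 that gave it a single value. The count of 2 called members was 1 (Eno3) in 7 of 10 fits leaving out 1 array (range 1 to 2), and 3 (with Pfkm) under array weights and without WT replicate 3 and D257A replicate 2. The count of 513 called probe sets was 322 among the brightest 30%, 1217 with array weights, 188 with the replicate block, 1076 at an adjusted p of 0.10, and 168 (without WT replicate 2) to 574 leaving out 1 array; without D257A replicate 1 it was 299, without D257A replicate 5 it was 323, without WT replicate 4 it was 277 and without WT replicate 5 it was 177. Centring arrays on the median moved the median of all probe sets by about -0.10 and gave 174 higher and 479 lower calls, beside 233 and 280. Small differences changed sign. Eno2 (-0.0044) was 0.10 with array weights, 0.12 without WT replicate 3 and D257A replicate 2, and -0.31 to 0.43 leaving out 1 array. Pfkl (0.02) was -0.0792 with median centring and -0.28 to 0.30 leaving out 1 array. Pfkp (-0.13) was -0.27 to 0.0245 leaving out 1 array. Ldhb (0.07) was -0.0269 with median centring, -0.0355 with quantile normalization, -0.13 over the mean of its probe sets and -0.0338 to 0.17 leaving out 1 array. Of the listed genes Car2 (-0.09) was 0.0237 with array weights and -0.26 to 0.066 leaving out 1 array. Pair differences kept their sign. Leaving out 1 array, Eno3 minus Eno2 was -3.29 to -2.30 and Pgam2 minus Pgam1 -4.23 to -3.07. Both missed the threshold without WT replicate 1, 2, 4 or 5 (exact p = 0.0159 and 0.0317, adjusted 0.0794 for both). Without WT replicate 3 and D257A replicate 2 they were -3.35 and -4.49 (adjusted exact p = 0.0714; smallest raw p 0.0286). With the replicate block they stayed at -2.73 and -3.68, with an adjusted exact p of 0.156, where 0.0625 is the smallest raw p. Leaving out 1 array, Pfkm minus Pfkl was -1.13 to -0.61 (-1.15 without WT replicate 3 and D257A replicate 2) and Pfkm minus Pfkp -0.96 to -0.54, the lowest of each range passing the threshold (without WT replicate 3). Same-numbered arrays share only a number: the correlations of their deviations were 0.18, -0.21, -0.34, 0.15 and 0.18. Filters, array weights and variance models do not enter the pairs. The cause of each change was not tested.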
